A study of Mus musculus with 2 samples.

Results

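The mucins, trefoil factors and their partner proteins of the colonic mucus were examined in whole colon of mice with and without epithelial EP4. The 10 genes were listed by name and found on the arrays through the RefSeq accession of each probe. They comprise Muc1, Muc2, Muc3, Muc4, Muc13, Muc20, Tff1, Tff3, Agr2 and Fcgbp, out of 22909 genes that could be named. Of the 10 genes, 9 were matched to at least 1 probe (14 probes in total), and Muc3 was matched to none. The control array carried RNA of Villin-Cre mice, which express Cre recombinase in the intestinal epithelium. The second array carried RNA of mice with the genotype Villin-Cre; EP4flox/flox, called EP4 cKO. Their floxed Ptger4, the gene of the prostaglandin E2 receptor EP4, is recombined by Cre in the same cells. By the methods of the study the mice were 8 weeks old, and by the labels they were of the C57BL/6 strain, with no treatment named. The RNA of each array came from 3 pools of whole colon, so cells outside the epithelium, where Villin-Cre is not active, were measured together with it. There was 1 array per genotype, labelled with Cy3, so the differences below compare these arrays, without replicates and without p-values.

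The gel that covers the colonic mucosa is built on the polymeric mucin Muc2, a product of goblet cells, which also release Fcgbp, a protein of the gel that binds to Muc2, and the trefoil factor Tff3. Agr2, a protein disulfide isomerase of the endoplasmic reticulum, is needed for the folding of Muc2. Muc1, Muc3, Muc4, Muc13 and Muc20 are instead anchored in the cell membrane and form the glycocalyx of the cell surface, and Tff1 is known mainly from the mucous cells of the stomach. The comparison asked whether the RNA of these barrier genes differed when the epithelium lacked the receptor.

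With the scaling of the study, none of the 8 genes with a measurable signal differed by more than 2-fold between the arrays. Scaling to the E1A control spots, which bind RNA added by the laboratory, put 7 of the 8 past 2-fold higher, and scaling to the median ratio of epithelial markers put 1, Tff3, past 2-fold lower. Over all genes, the E1A scaling put 8084 of 14677 past 2-fold higher. The scaling to epithelial markers put 2275 of 14667 past 2-fold lower. With the scaling of the study, Tff3 was the only gene of the set that had a lower signal in the array labelled EP4 cKO, past its measurement error (1.68-fold lower, a direction that turned with scaling to control spots, given below), whereas Fcgbp (1.56-fold) and Muc20 (1.55-fold) were higher, followed by Muc4 (1.39-fold), Agr2 (1.28-fold) and Muc1 (1.22-fold, lower with 1 scaling to epithelial markers). Muc2 and Muc13 lay within their measurement error of no difference with this scaling, but past it with the scalings to E1A spots (1.16 and 1.20 on the log2 scale) and to epithelial markers (-0.39 and -0.35, or -0.25 and -0.21 by their median signal). For comparison, 12.9% of the 14668 genes with a value differed by more than 2-fold (4.89% higher and 7.98% lower), and 28.5% by more than 1.5-fold, the limit that 3 of the 8 genes passed. In these percentages and below, signals were scaled as in the methods of the study, so that the mean signal of an array without the lowest and highest 2% of its probes equals 2500 arbitrary units, and ratios are EP4 cKO over Villin-Cre. A probe is called measured when the scanner software marked it as well above background, and each gene takes the value of its brightest probe, by the mean of both arrays. The error of a log2 ratio was taken from the error that the software gives for each spot, which does not cover the spread between mice. It is about 10% for each bright spot, so the bright genes share a log2 error of 0.20. The median SD between repeated spots of a probe was smaller, at 0.034.

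Ptger4, the targeted gene, was measured by 2 probes. Scaled signals of the brighter were 6227 (labelled Villin-Cre) and 5661 (labelled EP4 cKO), with a log2 ratio of -0.14 ± 0.20 (error of the spots). Those of the dimmer were 393 and 592, with a ratio of 0.59 ± 0.23 on the log2 scale. The arrays therefore do not show the deletion by themselves, the place of the probes relative to the floxed part is not known here, and directions rest on the labels. The arrays had 45.4% and 51.6% of 56593 gene probes well above background (Villin-Cre and EP4 cKO), and the median log2 ratio of all genes was -0.10. The share of the 2-fold differences that were higher was 38.0%, and it was 50.6% with scaling to the 75th percentile, 60.6% with normexp and quantile normalization, 59.4% with loess, 48.1% with the trimmed mean over all spots, 96.8% with scaling to the E1A control spots, 16.8% with the median ratio of epithelial markers set to 0 and 24.5% with their median signal set equal. Without a floor for dim probes it was 13.9%, and the median of all genes moved by -0.27. The E1A spots moved the median of all genes by 1.16 on the log2 scale, and the epithelial markers moved it by -0.32 or, by their median signal, by -0.19. Loess moved it by 0.14, and the 75th percentile, normexp with quantile normalization and the trimmed mean over all spots each by 0.10.

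**Figure D1:**
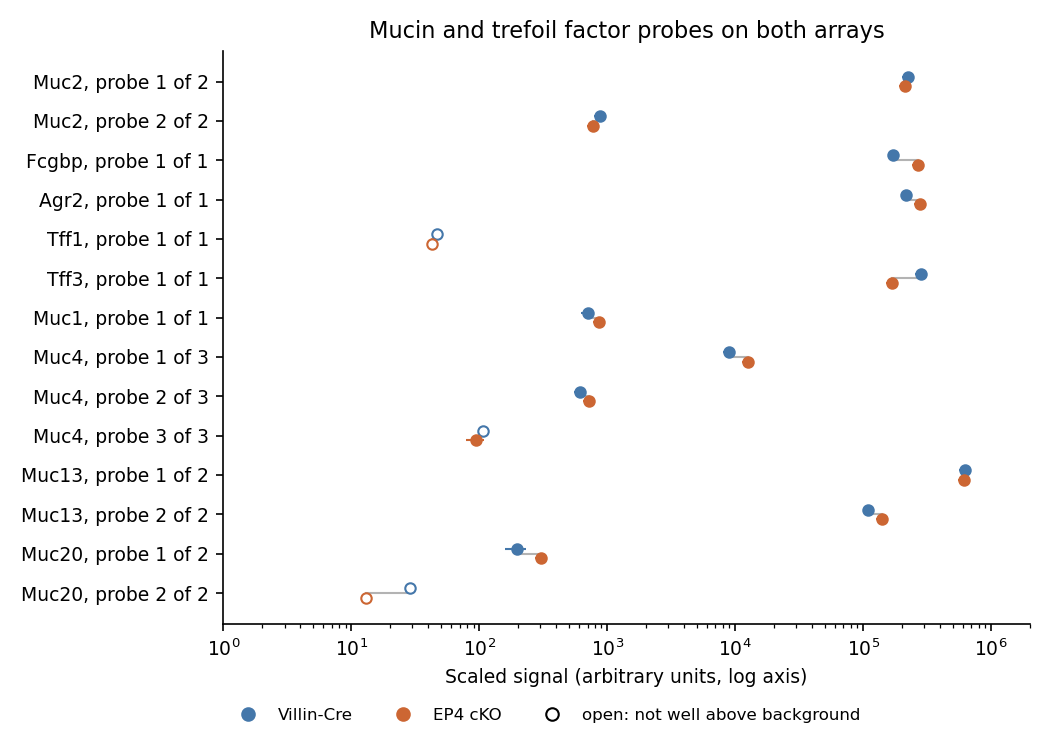
Scaled signal (arbitrary units, log axis) of each of the 14 probes of the 9 genes found, on the Villin-Cre array (blue) and the EP4 cKO array (orange). Bars are the error of the spot given by the scanner software, and open circles, drawn without a bar, are spots not well above background, and grey lines join the arrays. For the probes measured on both arrays the circles lie close together, with Tff3 shifted to the left and Fcgbp, Muc4 and Muc20 to the right in EP4 cKO with the scaling used.

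Muc2, the gel-forming mucin of the colon, had scaled signals of 222068 in Villin-Cre and 212341 in EP4 cKO by its brighter probe. The log2 ratio was -0.06 ± 0.20, so that the difference was smaller than the error of the spots. The dimmer probe had 884 and 776, a log2 ratio of -0.19 ± 0.21. Both probes of Muc2 were thus slightly lower in EP4 cKO with the scaling used, neither by more than its error, and they differed from each other by 0.12, less than their combined error of 0.29. The sign of this small difference depended on the scaling, since the ratio ranged from -0.13 to 0.15 over other ways to process the arrays, leaving out the scalings to control spots and epithelial markers, which are given above.

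Fcgbp had 172094 in Villin-Cre and 268215 in EP4 cKO, a log2 ratio of 0.64 ± 0.20. It had the highest ratio of the set, above that of 91.2% of all genes with a value. Agr2 had 217571 and 277820, a log2 ratio of 0.35 ± 0.20. The ratio of Fcgbp exceeded that of Muc2 by 0.70, more than their combined error of 0.29, and that of Agr2 exceeded it by 0.42. The ratios of the 3 secreted or folding proteins of the Muc2 gel therefore did not run together on these arrays, with Muc2 near no difference and Fcgbp the farthest above it.

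Tff3, the trefoil peptide that goblet cells release with the mucins, had 280741 in Villin-Cre and 167451 in EP4 cKO by its single probe. The log2 ratio was -0.75 ± 0.20, more than 3 times its error, and 13.3% of all genes had a ratio as low or lower. It was 0.68 below that of Muc2 and 1.39 below that of Fcgbp, each with a combined error of 0.29. Tff1 had 46.4 and 42.5 by its single probe, which did not stand well above background in either genotype, and no ratio is given for it.

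The sequences upstream of the genes of the gel are shown because these genes are made in the same cells but had different ratios. RefSeq (GRCm38.p6) gave a promoter for 8 of the 10 genes, and the 250 bases before the start are printed 5′ to 3′ on the strand of the gene for Muc2 (chr7:141690090-141690339), Fcgbp (chr7:28070986-28071235) and Agr2 (chr12:35992675-35992924), all on the plus strand. Capitals mark matches to the motifs searched on both strands.
Muc2: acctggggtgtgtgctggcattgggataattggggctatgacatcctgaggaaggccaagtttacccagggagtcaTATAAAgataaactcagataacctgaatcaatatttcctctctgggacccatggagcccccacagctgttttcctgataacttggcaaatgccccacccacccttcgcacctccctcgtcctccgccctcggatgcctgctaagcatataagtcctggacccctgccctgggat
Fcgbp: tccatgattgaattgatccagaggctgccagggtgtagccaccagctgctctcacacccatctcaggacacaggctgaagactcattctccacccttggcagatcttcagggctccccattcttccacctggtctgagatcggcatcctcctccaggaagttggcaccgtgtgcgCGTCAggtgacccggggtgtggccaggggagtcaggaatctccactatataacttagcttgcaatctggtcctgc
Agr2: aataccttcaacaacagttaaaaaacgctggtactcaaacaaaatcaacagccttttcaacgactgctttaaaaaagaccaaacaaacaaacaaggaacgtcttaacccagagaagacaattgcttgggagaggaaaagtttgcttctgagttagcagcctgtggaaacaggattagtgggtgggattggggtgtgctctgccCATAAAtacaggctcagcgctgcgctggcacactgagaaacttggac
The motifs were the cAMP response element TGACGTCA, which PKA signaling below EP4 acts on through CREB, its core TGACG, which is part of it, the TATA box TATAAA, the GAS element TTCNNNGAA bound by STAT factors, and TTTATG, a core of sites for the intestinal factors Cdx1 and Cdx2. The full cAMP response element was found in none of the 8 genes and in 1.55% of 32851 promoter windows of the same length. In Muc2 only the TATA box letters matched, in Fcgbp only the core TGACG, and in Agr2 only the Cdx core, which 12.4%, 17.8% and 10.8% of all promoters hold. These matches describe the printed letters and were not related to the signals.

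With the scaling of the study, the membrane mucins with a value (Muc1, Muc4, Muc13 and Muc20) were near or above no difference. Muc13 was lower, at -0.35, with the median ratio of epithelial markers set to 0. Muc13, a mucin of the apical membrane of enterocytes and goblet cells, was measured by 2 probes. The brighter had 619615 in Villin-Cre and 609703 in EP4 cKO, a log2 ratio of -0.02 ± 0.20, whereas the dimmer, at 109627 and 138933, had 0.34 ± 0.20. The probes of Muc13 differed by 0.37, more than their combined error of 0.29, so the value of the gene depends on the probe. RefSeq gave 2 promoter windows for Muc13, of which 1 held both TTCTTGGAA, a match to the GAS element, which 7.02% of all promoters hold, and the Cdx core on the opposite strand.

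Muc4, a large membrane mucin that can bind the receptor ErbB2, was measured by 3 probes. The brightest had 8936 in Villin-Cre and 12461 in EP4 cKO, a log2 ratio of 0.48 ± 0.20. The second had 616 and 714, a log2 ratio of 0.21 ± 0.21, and the third was well above background on the EP4 cKO array only (106 and 94.4) and gave no ratio above 1. The mean over the probes was 0.23. Muc20 had 195 and 303 by its brighter probe, a log2 ratio of 0.63 ± 0.31, the largest error of the set, and its other probe stayed near background in both genotypes (28.9 and 13.1). The genes of Muc4 and Muc20 overlap in RefSeq, and where their probes lie in that overlap was not examined here. Muc1, a widely expressed membrane mucin, had 701 and 856, a log2 ratio of 0.29 ± 0.21.

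In the order of their ratios, from Fcgbp through Muc20, Muc4, Agr2, Muc1, Muc13 and Muc2 to Tff3, neighbours differed by less than their combined error except at 2 steps. Muc1 lay 0.31 above Muc13, just past a combined error of 0.30, and Muc2 lay 0.68 above Tff3. The median log2 ratio of the 8 genes was 0.32, against -0.10 over all genes. Probes of dimmer signal had lower ratios on these arrays, so all genes were also divided into 10 bands of equal size by mean signal. For the brightest band, which holds Muc2, Fcgbp, Agr2, Tff3 and Muc13, the median log2 ratio was -0.02, and Tff3 lay 0.73 below it and Fcgbp 0.66 above it. Muc4 lay 0.56 above the median of its band, Muc1 0.51 and Muc20 0.91.

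**Figure D2:**
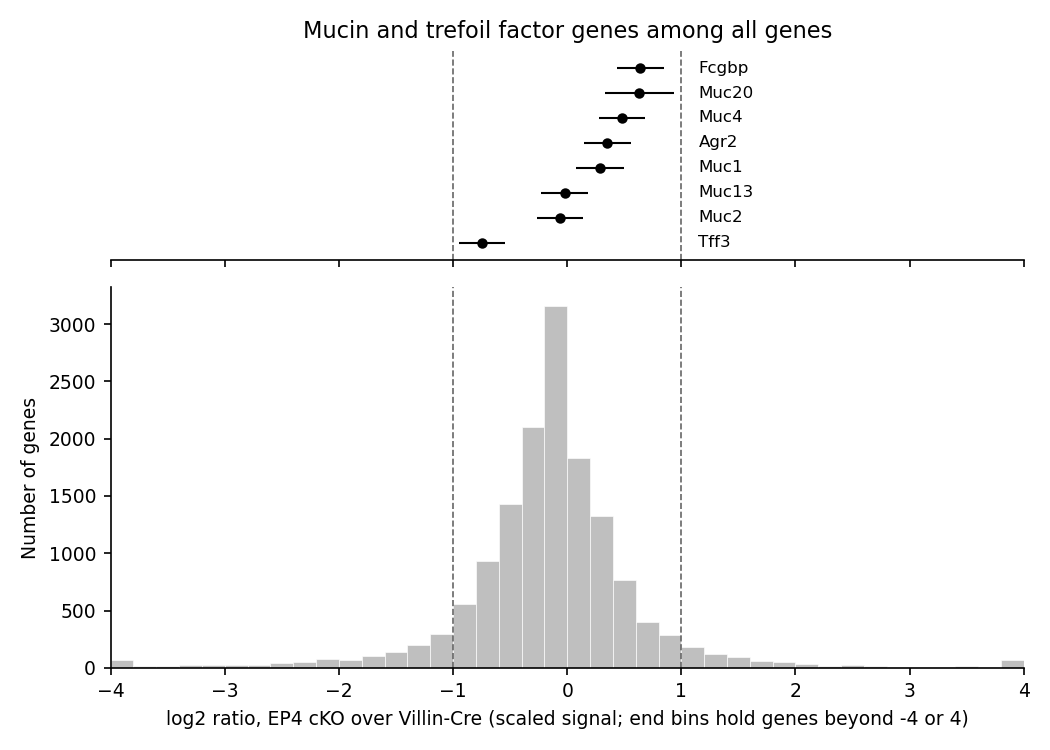
Upper part: log2 ratio of scaled signal, EP4 cKO over Villin-Cre, of the 8 genes with a value, with the error of the spots as bars. Lower part: number of the 14668 genes with a value in bins of that ratio, where dashed lines mark 2-fold. All 8 genes lie inside the dashed lines, with the lowest ratio for Tff3 and the highest for Fcgbp and Muc20.

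**Figure D3:**
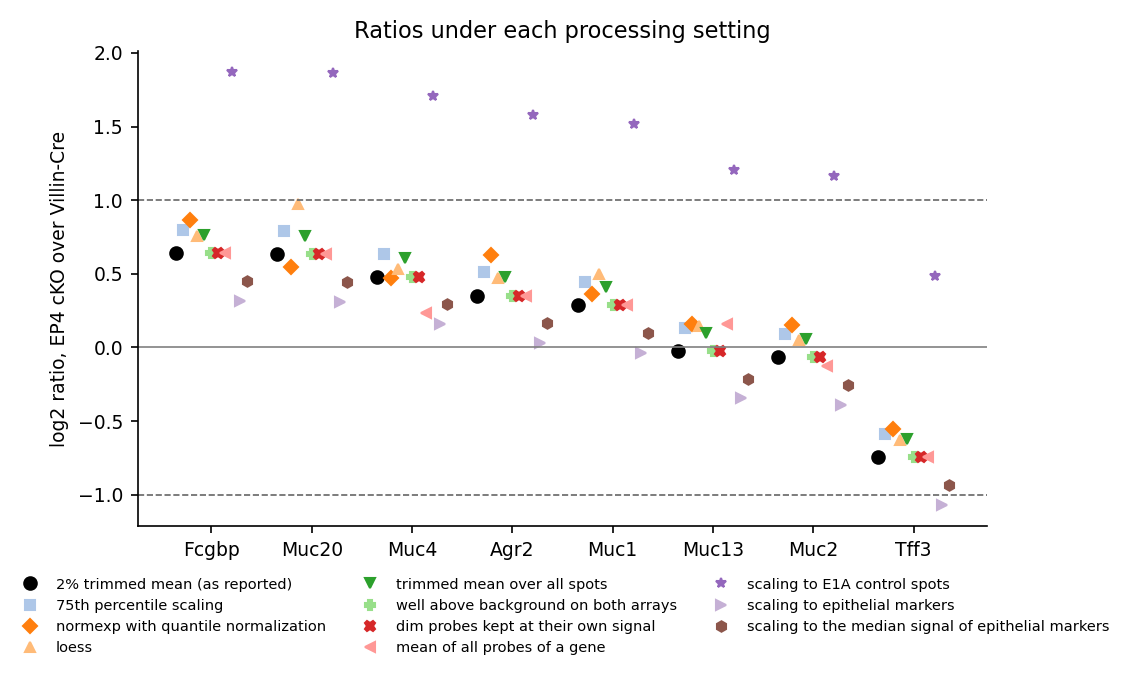
Log2 ratio, EP4 cKO over Villin-Cre, of each gene under the processing used and 10 alternatives, with 1 symbol per setting and dashed lines at 2-fold. Tff3 is lowest in each setting, and Fcgbp is highest in each except loess, where Muc20 is (0.97 against 0.75). Scaling to the E1A control spots lifts all genes together, and both scalings to epithelial markers lower them.

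Since the zero of the scale depends on the scaling, each gene was also expressed relative to the median of all genes in the same setting. Tff3 lay below that median in all 11 settings, by 0.38 to 0.67 (-0.64 in the setting used), and Fcgbp lay above it in all 11, by 0.72 to 1.01. Agr2 (0.44 to 0.72), Muc20 (at least 0.55), Muc4 (0.34 to 0.85), Muc1 (0.36 to 0.66) and Muc13 (0.08 to 0.35) were above it in each setting too, and Muc2 ranged from -0.02 to 0.30. Without this reference, Muc2 and Muc13 were slightly above 0 with the 75th percentile, normexp, loess and the trimmed mean over all spots, Tff3 was higher in EP4 cKO with the E1A scaling (0.48), and Muc1 was lower with the median ratio of epithelial markers set to 0 (-0.03).

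The mucus genes share the RNA of each array with the other cells of the colon. Of 13 markers of the colonic epithelium, all measured on both arrays, 1 was more than 2-fold higher in EP4 cKO (Krt20, a keratin of surface cells, log2 ratio 1.80), none was more than 2-fold lower, and their median was 0.32, the same to 2 decimals as that of the mucus genes. Relative to this median, the log2 ratio was -1.07 for Tff3, -0.39 for Muc2, 0.32 for Fcgbp, 0.03 for Agr2 and -0.03 for Muc1. When the median signal of the same markers was set equal instead, it was -0.93 for Tff3, -0.25 for Muc2 and 0.45 for Fcgbp, so whether Tff3 was past 2-fold depended on how the markers were used. Of 7 fibroblast markers, 6 had a value and 5 were more than 2-fold lower, of which Col1a1, Col3a1 and Lum were bounds. The summed signal was 14139 in Villin-Cre and 2408 in EP4 cKO. Fn1 went the other way (1071 and 2119, log2 ratio 0.98) and made up most of the EP4 cKO sum. Among 14 leukocyte markers, 10 had a value and 3 passed 2-fold, all higher, with summed signals of 162214 and 161198. Csf3r (106452 and 81629) and Itgam (49347 and 68598) made up most of these sums, and the median log2 ratio was 0.24 over the 10 markers with a value and 0.72 over the 8 measured on both arrays. Among smooth muscle markers, 1 of 6 was more than 2-fold lower and none higher, with summed signals of 32908 and 47366. Markers of stomach mucous cells had 1 of 5 genes measured on both arrays, Gkn3, which was 2.42-fold higher (217 and 526), with Gkn1, Gkn2 and Tff2 not well above background. The 4 Hox genes of the distal colon ran from -0.40 to 0.21. Absorptive colonocyte markers had 3 of 11 genes past 2-fold, all higher (median 0.41, or 0.52 over those measured on both arrays). Enteroendocrine and tuft cell markers had 2 of 6, both lower (median -0.45, or -0.92 over those measured on both arrays). Trpm5 was not well above background. The 2 lower genes were Chga (2.88-fold) and Chgb (2.33-fold), which encode granule proteins of enteroendocrine cells. Of 4 Paneth cell markers 2 were past 2-fold higher, Defa24 by a bound and Itln1, which is also in the list of goblet cell products. Of 3 measured small intestine markers 1 was past 2-fold higher, with Sis and Lct not well above background. Of 2 measured pancreas markers 1 was past 2-fold lower. The part of cell composition in the ratios of the mucus genes was not tested, and fewer cells of a type cannot be told apart from less RNA per cell.

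The other genes of mucus biology were described by 7 lists with 117 genes outside the set, of which 104 had a value. Of these, 7 were past 2-fold in the higher and 4 in the lower direction, or 6.73% and 3.85%, beside 4.89% and 7.98% over all genes, and the median log2 ratio was 0.11. With scaling to the 75th percentile or loess 11 were higher, and with the median ratio of epithelial markers set to 0 the counts were 4 higher and 9 lower. Among the other mucins, 5 of 12 had a value and only Cd164 and Smgc were measured on both arrays, with log2 ratios of 0.09 and 0.00. The gel-forming mucins Muc5ac (131 and 101) and Muc5b (122 and 85.9) were near the background on both arrays, and Gm9573, which RefSeq also lists as Muc21, was at least 3.90-fold lower in EP4 cKO. Agr3, a relative of Agr2, was at least 3.47-fold lower (201 and 50.2, the latter not well above background). Neither Gm9573 nor Agr3 was past 2-fold lower with normexp and quantile normalization or with E1A scaling. Without a floor for dim probes 4 genes of each of their lists were, but that setting also gave ratios to genes not well above background on either array. Tff2 was not well above background in either genotype.

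Secreted and granule genes of goblet cells had the highest median of the 7 lists, 0.56 over 18 genes, with 4 past 2-fold, all of them higher. The count was 14 with scaling to the E1A control spots, 2 with the median ratio of epithelial markers set to 0, where Clca1 and Capn9 were within 2-fold, and 3 with their median signal set equal. Retnlb, an antibacterial protein of goblet cells, went from 95.9, not well above background in Villin-Cre, to 275441 in EP4 cKO, at least 2197-fold. Itln1, a lectin of goblet and Paneth cells, was 13.9-fold higher. Clca1, a protease that processes the Muc2 gel, had 295526 and 733436 (2.48-fold), and the protease Capn9 was 2.20-fold and Tpsg1 1.72-fold higher. Zg16, a lectin of the gel named here after its values were seen, had a log2 ratio of -0.23. Of the genes of this list, 13 had a ratio above 0 and 5 below, from -0.49 to -0.19. Tff3 (-0.75) thus lay below all genes of the list. Muc2 (-0.06) lay below the 13 but above the 5.

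The transcription factors of the goblet cell lineage had a median of -0.07 over 12 genes, all measured on both arrays. Hes1, the Notch target that blocks secretory fate, was 2.50-fold lower, and it was the only gene of the list past 2-fold. With normexp and quantile normalization or E1A scaling 0 genes of the list were past 2-fold lower, with the median ratio of epithelial markers set to 0 there were 2, and E1A scaling put 7 past 2-fold higher. Foxa2 had a log2 ratio of -0.80, Sox9 -0.67 and Creb3l1 -0.56. Atoh1, the factor that sets secretory fate, had -0.13 and Spdef, which drives goblet cell maturation, 0.09, both smaller than their error of 0.20 and named after their values were seen.

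Of the genes of mucin folding and endoplasmic reticulum stress, none of 20 was past 2-fold, and the median was 0.18. With the 75th percentile, the trimmed mean over all spots or no floor for dim probes 1 was higher, and with E1A scaling 17 were. Pdia3, a disulfide isomerase, had the largest ratio (0.89), followed by Sdf2l1 (0.71) and Dnajc10 (0.59), and the stress sensor Ern1 had -0.56. Of 31 measured genes of mucin O-glycosylation, 2 passed 2-fold in the higher and 1 in the lower direction (median 0.11). With loess 4 were higher and 0 lower, and with normexp and quantile normalization 0 were lower. With no floor for dim probes, which gave all 34 genes of the list a value, 3 were lower. With the median ratio of epithelial markers set to 0, 3 were lower, and with E1A scaling 25 were higher and 0 lower. Gcnt1, which builds the branched core of O-glycans, was 3.02-fold and the sialyltransferase St3gal4 2.63-fold higher, B4galnt3 was 2.29-fold lower and Galnt3, which starts O-glycans, had a log2 ratio of 0.95. Of 17 genes of mucus processing and release, 1 was more than 2-fold higher, the transglutaminase Tgm2 (2.41-fold), and the median was 0.39. The count was 3 with the 75th percentile or loess, 2 with the trimmed mean over all spots, 11 with E1A scaling and 0 with the median ratio of epithelial markers set to 0, where 2 were lower, and 1 was lower with the mean of all probes or with the median signal of these markers set equal. The granule release genes Rab27a and Unc13d had 0.91 and 0.85, and Mep1a, a subunit of the protease meprin, -0.91.

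**Figure D4:**
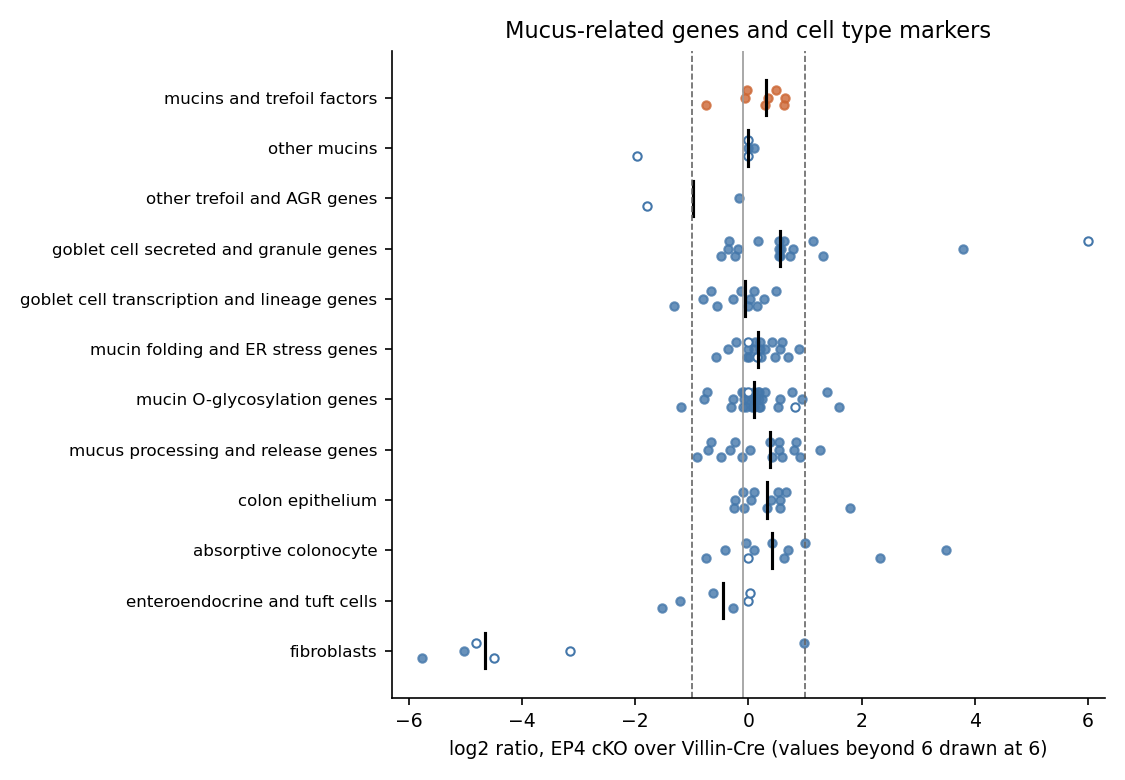
Log2 ratio, EP4 cKO over Villin-Cre, of the 8 mucin and trefoil factor genes (orange), the 7 lists of mucus-related genes and 4 lists of cell type markers (blue). Filled circles are genes measured on both arrays, open circles are bounds, short black lines are medians of the genes with a value, dashed lines mark 2-fold and the grey line is the median of all genes. The mucin and trefoil factor genes stay inside 2-fold, and 5 of the 6 fibroblast markers with a value lie far to the left.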

How the data were processed

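RNA of whole colon was measured on 2 Agilent arrays, 1 per genotype, and samples were grouped by the genotype in their labels. The authors deposited scanner intensities, which the scanner software had corrected for background and spatial trends before deposit and which were not normalized between arrays. Per the file headers the software was Feature Extraction 12.0.3.1, and the submitters' processing notes name 11.5.1.1. The flags used, another value of the software, were taken as deposited by the authors.

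Control spots were left out, as were 195 spots that either array marked as outliers, spots of a probe were averaged, and each array was scaled to a trimmed mean (2% off each end) of 2500. The factors were 3.45 for Villin-Cre and 2.68 for EP4 cKO. For a probe well above background on 1 array only, the dim side took its own signal or, if higher, the floor of its array, the lowest signal of a probe well above background (125 in Villin-Cre, 57.8 in EP4 cKO), and its fold is given as "at least". A bound of 1 or less counted as a log2 ratio of 0. Probes were named by RefSeq accession through a table of GRCm38.p6, which matched 58.3% of 56593 probes. The arrays were designed on another assembly, so no probe position is given. The error of a log2 ratio combines the spot errors of both arrays. Among 163 probes with 10 spots, the median SD of the ratio between spots was 0.034. The number of arrays limits the precision.

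The genes and lists were chosen with earlier results of these data known. Named genes are all 10 genes of the set, Ptger4 and, per list, up to 4 genes with the largest ratios measured on both arrays and any bound past 2-fold. Any other gene named, such as single cell type markers, Muc5ac, Muc5b and Tff2, was singled out with its values known. No test was made with 1 array per genotype. The 9 alternatives planned were scaling to the 75th percentile, normexp (offset 50) on the median signal with quantile normalization, loess (span 0.3), the trimmed mean over all spots, 2 filters on dim probes, the mean of all probes, and thresholds of 3-fold and 1.5-fold. Normexp was meant for the mean signal, which was not used here. Scaling to E1A spots and 2 scalings to epithelial markers (median signal set equal, or median log2 ratio set to 0) were added after seeing the data, the latter after the values of the former were known. All steps were also tested on simulated data. Normexp was run with limma 3.58.1 in R 4.3.3, figures were drawn with matplotlib 3.10.9, and all else was computed in Python 3.11.15 (pandas 2.3.3, numpy 2.4.6, statsmodels 0.14.6).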

Additional observations from a re-analysis of the deposited data

How the results depend on the processing

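No paired analysis was possible because there is 1 array per genotype, and no array could be left out. The counts of 0 genes of the set past 2-fold in either direction, which come from no test, and the median of 0.32 were the same or moved by less than the error of the spots with every other scaling, filter and probe rule chosen at the outset. At 1.5-fold, 2 genes of the set were higher and 1 lower. When arrays were scaled to E1A spots, 7 of the 8 genes were past 2-fold higher and their median was 1.55, and with the median ratio of epithelial markers set to 0 (called epithelial scaling here) 1 gene, Tff3, was more than 2-fold lower and the median was -0.0024. With the median signal of these markers set equal, the form tried first, none was past 2-fold, Tff3 was at -0.93, the median was 0.13, and all genes past 2-fold numbered 546 higher and 1682 lower. The counts of all genes past 2-fold, 717 higher and 1171 lower of 14668, became 1127 and 769 with loess. They became 325 and 548 at 3-fold and 1447 and 2740 at 1.5-fold. E1A scaling gave 8084 and 269, epithelial scaling gave 461 and 2275, and 394 were lower with normexp and quantile normalization. Without a floor for dim probes they were 1172 and 7253 of 22909 genes, as genes not well above background on either array took a value too. In the 7 lists, the counts of 7 higher and 4 lower genes became 3 and 2 at 3-fold, 20 and 11 at 1.5-fold, 76 and 0 with E1A scaling and 4 and 9 with epithelial scaling. They became 11 higher with the 75th percentile and with loess, and 0 lower with normexp and quantile normalization. There were 2 lower with genes well above background on both arrays. There were 12 lower without the floor for dim probes, where list genes not well above background on either array counted too. Counts for the lists are over all 7 together. Of the other values, those of single genes and single lists, 180 stayed within the error or within 1.5 times the count and 68 moved. The causes of these shifts were not tested. Signal over background limits the dim genes Tff1 and Muc20.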
